A study of Drosophila melanogaster with 12 samples.

Results

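Day and night were compared in the heads of control flies (Drosophila melanogaster), with 3 RNA-seq libraries from ZT16 set against 3 from ZT8, which are 6 of the 12 libraries of the study. The members were chosen by label: every library titled control, at either time. ZT counts the hours since lights came on in a 12 h light and 12 h dark cycle, so ZT8 lies in the light phase and ZT16 in the dark phase. Flies were collected on day 4 of entrainment, and RNA came from heads with the brain inside. The study asked how dPPIL4, a peptidyl-prolyl isomerase, bears on the oscillation of the clock protein PERIOD, and its other 6 libraries come from knockdown flies at the same times. The controls were UAS-dicer2/+;tim(UAS)-Gal4/+, so they carried the Gal4 driver of clock cells and the Dicer-2 transgene, but no RNAi transgene. The knockdown flies carried UAS-dppil4 RNAi opposite UAS-dicer2, with the same driver. The tim promoter limits this driver to cells that express tim, while each library holds RNA of the whole head. The titles number the libraries 1 to 3 in each group, and replicate numbers here are those of the titles. The library names at ZT8 carry numbers that differ in part from these. The labels state nothing on separate cultures, sex or age. The p-values below therefore measure the spread between these libraries, which may be technical.

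The circadian clock of the fly is a transcriptional feedback loop. The transcription factors CLOCK and CYCLE switch on per and tim, whose proteins later enter the nucleus and shut CLOCK and CYCLE down. A second loop sets the RNA level of Clk itself through VRILLE, which represses it, and PDP1, which activates it. In fly heads most clock RNA comes from photoreceptors, glia and fat body, with a small part from the clock neurons of the brain.

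Depth was 37053535 to 37322372 counts in the ZT8 libraries and 28973386 to 29597674 in the ZT16 libraries. Ribosomal RNA took 2.92% to 5.89% of counts at ZT8 and 6.40% to 8.05% at ZT16. Depth and ribosomal RNA therefore moved with time of day, and their part in the differences below was not tested. Rhodopsin genes summed to between 35527 and 44421 CPM (counts scaled to a common library total) in each of the 6 libraries, and 26 genes of the male reproductive tract summed to at most 0.828 CPM. CG5808, the gene of dPPIL4, stood at 4.81 to 4.93 CPM at ZT8 and 5.16 to 6.17 CPM at ZT16 in controls, against means of 3.91 and 4.08 CPM in the knockdown groups.

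Libraries stood apart in 3 of the 4 groups. Among the day controls, replicate 1 differed from replicates 2 and 3 with a chi-square per degree of freedom of 119 and 109, where replicates 2 and 3 gave 5.38 with each other. It held 35114 CPM of fat body genes against 26570 and 26254 CPM, and 5.89% ribosomal RNA against 2.92% and 3.27%. In the knockdown, day replicate 3 differed from replicates 1 and 2 in the same way (155 and 168, against 18.7 between those). Control ZT16 replicate 1 held 2394 CPM of 40 midgut enzyme genes and 856 CPM of 31 ovary and eggshell genes, where the 3 ZT8 libraries held 11.9 to 12.7 and 37.2 to 44.5 CPM. Replicate 2 of the same group held 56.7 CPM of the midgut genes and 49.3 CPM of the ovary genes, and replicate 3 held 17.8 and 32.9 CPM. Of the 40 midgut genes, 37 had their highest control value in replicate 1. The count of all calls is therefore given without that library too, and counts of many lists are given without the libraries, day replicate 1 included, that moved them most.

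Across 10717 genes, 2542 differed between night and day in control heads at an adjusted p under 0.05, called hereafter (23.7% of the genes tested), 1281 higher at ZT16 (12.0%) and 1261 lower (11.8%). Most differences were small: the median size among called genes was 0.33 on the log2 scale, and 247 genes (2.30%) changed at least 2-fold, 167 up and 80 down. The 3 and 3 control libraries did not overlap for 4112 genes (38.4%), of which 2458 were also called. Without control ZT16 replicate 1, 1941 of 10877 genes were called (17.8%), and 1776 of the original calls were among them with the same sign. A total of 1320 genes (12.3%), 628 up and 692 down, were called in each of the 12 fits that left out 1 library. The count of calls was 1532 without control ZT8 replicate 2 and 1689 without replicate 3. The spread was estimated over all 12 libraries, knockdown included, and a fit of the 6 control libraries alone gave 1785 calls. On TPM, the deposited levels scaled for transcript length and library total, where the median gene stood at -0.11 and not 0.02, the split was 525 up and 2284 down, so that rises made up 18.7% of calls in place of 50.4%. Small rises are for that reason read against the median gene. Counts of list members below are to be read beside the 12.0% higher and 11.8% lower of all genes.

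The core clock genes gave some of the clearest differences. per, a repressor of the loop, stood at 145, 151 and 138 CPM at ZT8 and at 289, 306 and 301 CPM at ZT16. The lowest night library was nearly double the highest day library. The log2 fold change was 1.04 ± 0.05 (SE, n = 3 per group, edgeR quasi-likelihood test, adjusted p = 1.56e-07). tim, the partner of per, stood at 774, 760 and 741 CPM by day and at 1599, 1687 and 1767 CPM by night (log2 fold change 1.15 ± 0.05, adjusted p = 1.56e-07). Both genes of the repressor pair were thus higher at ZT16, with no overlap between the times.

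Clk, the activator, moved the other way. It stood at 44.6, 39.8 and 39.7 CPM at ZT8 and at 9.39, 12.2 and 11.1 CPM at ZT16 (log2 fold change -1.92 ± 0.10, adjusted p = 3.28e-07). cry, which encodes the blue-light receptor that resets the clock, fell from 285, 231 and 221 CPM to 61.4, 65.1 and 59.5 CPM (log2 fold change -1.99 ± 0.09, adjusted p = 1.56e-07). Every night library of both genes lay far below every day library. The second-loop genes rose less: vri went from 264, 296 and 297 CPM to 419, 440 and 464 CPM (0.63 ± 0.06 log2, adjusted p = 5.04e-05), and Pdp1 from 521, 546 and 605 to 888, 924 and 1009 CPM (0.75 ± 0.07 log2, adjusted p = 2.94e-05). These 6 genes were called in all 12 fits with a library left out.

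cyc, the constitutive partner of Clk, and cwo, a repressor acting beside per, did not pass the test. cyc stood at 34.6 to 39.2 CPM at ZT8 and 34.6 to 38.5 CPM at ZT16, a difference of 0.02 ± 0.07 log2 (adjusted p = 0.838). cwo gave 120 to 132 CPM and 128 to 134 CPM (0.08 ± 0.05 log2, adjusted p = 0.302). The groups overlapped for both, and the sign of each turned negative on TPM.

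**Figure D1:**
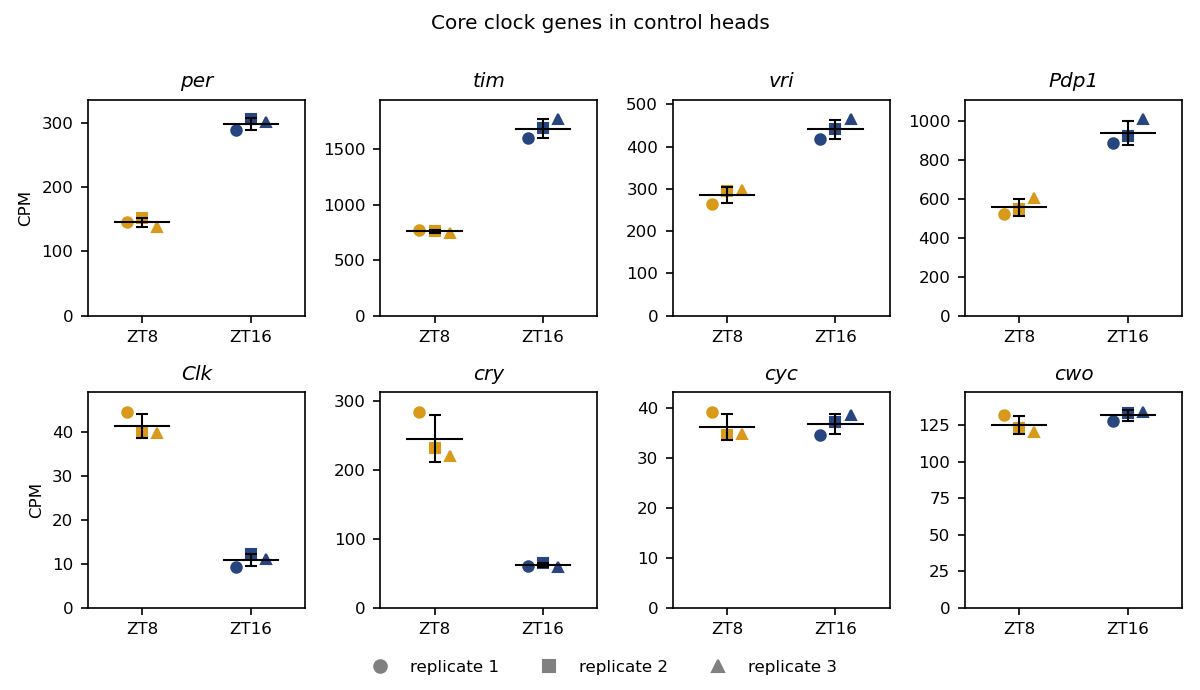
CPM (vertical axes from 0) of 8 core clock genes in the 3 control libraries of ZT8 (gold) and of ZT16 (blue), with the mean as a line and the SD as a bar; marker shapes give the replicate. The libraries of per, tim, vri and Pdp1 lie higher at ZT16, those of Clk and cry lower, and those of cyc and cwo overlap.

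In the dm6 coordinates of the annotation, per lies on chromosome X at 2685580 to 2692780 (+ strand), tim on 2L at 3493986 to 3508119 (- strand), Clk on 3L at 7763233 to 7775603 (- strand) and cry on 3R at 19212154 to 19215442 (+ strand). per overlaps dyw and cry overlaps vib on the opposite strand. Reads in such overlaps could not be assigned to a strand.

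The transcript variants of these genes did not all follow the gene. Of 23013 transcripts tested, 2441 were called (10.6%). Both variants of per rose, A from a mean of 118 to 225 CPM (0.94 log2) and B from 26.9 to 74.4 CPM (1.47 log2). All 7 tested variants of tim rose, by 0.76 log2 for M to 2.25 log2 for R, and variants B and T hold identical values. Pdp1 was split: D (1.52 log2), J (1.36 log2) and I (1.11 log2) rose, while K, from 267 to 289 CPM, gave 0.12 log2 with an adjusted p of 0.458. The rise of Pdp1 thus sat in 3 of its 11 tested variants.

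vri was split more sharply. Variant D rose from 103 to 192 CPM (0.90 log2, adjusted p = 0.00133), whereas variant F fell from 102 to 58.8 CPM (-0.79 log2, adjusted p = 0.00406). Variant A, at 27.8, 89.7 and 100 CPM by day and 143, 192 and 211 CPM by night, did not pass (adjusted p = 0.0819). For Clk, variants A (-2.43 log2) and H (-1.46 log2) fell, and D and F, with day means of 2.96 and 1.04 CPM, did not pass the test. RSEM divides reads among variants by estimate, so a variant's level is less certain than the gene's.

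Genes that act on the clock proteins mostly fell or did not pass. Of 23 kinases, phosphatases, ubiquitin-system and RNA-binding genes of this kind, 7 fell (30.4%) and 2 rose (8.70%), with a median of -0.02 log2. Usp8, a deubiquitinase, fell from 240, 243 and 235 CPM to 143, 159 and 151 CPM (-0.67 ± 0.04 log2, adjusted p = 2.3e-06). The kinase gene nmo fell by 0.38 log2, lark, an RNA-binding protein gene, by 0.35 log2 and tws, a regulatory subunit of protein phosphatase 2A, by 0.25 log2. The day and night libraries of these 4 did not overlap, which holds for 2458 of all 2542 called genes. The pair that rose, named after their values were seen, were CkIIalpha (0.22 log2) and Bdbt (0.24 log2), and Bdbt was called in 5 of the 12 fits.

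Among 28 genes reported elsewhere to cycle in fly heads, 8 rose and 8 fell (28.6% each). The one with the largest rise was Achl (Achilles), a clock-regulated gene known for holding back immune genes. It stood at 4.39, 4.81 and 5.13 CPM at ZT8 and at 183, 196 and 199 CPM at ZT16. Its log2 fold change of 5.33 ± 0.22 (adjusted p = 3.73e-07) corresponds to 40.3-fold, with the 3 night libraries close together. Ugt35B1, a glycosyltransferase gene, fell from 40.2, 32.0 and 36.1 CPM to 14, 13.5 and 13.6 CPM (-1.40 ± 0.08 log2, adjusted p = 4.26e-07). Hpd, an enzyme of tyrosine breakdown, fell from 211, 192 and 195 CPM to 79.7, 82.9 and 94.5 CPM (-1.22 ± 0.08 log2, adjusted p = 3e-06). CG9649 fell by 0.91 log2. All 4 were called in each of the 12 fits. The genes were reported in other samples, but this list of them was written with earlier results of these data known. Of its 28 members 12 did not pass here, and without night replicate 1 the list gave 7 rises and 6 falls.

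The takeout family, secreted proteins that bind small lipophilic ligands, held 20 tested members, of which 5 fell (25%) and 2 rose (10%). CG31207 went from 24.9 to 27.8 CPM by day to 15.4 to 18.9 CPM by night (-0.62 ± 0.10 log2, adjusted p = 0.00115), and CG31189 and CG7079 fell by 0.65 and 0.52 log2. CG2016 fell by 0.24 log2. takeout itself (to), named after its values were seen, went from 23.5, 21.9 and 22.9 CPM to 37.3, 38.6 and 43.7 CPM (0.81 ± 0.22 log2, adjusted p = 0.0286), a call that 5 of the 12 fits kept. The other rise, CG8997, was at 35.8 CPM in control ZT16 replicate 1 and at most 0.92 CPM in the other 5 control libraries, and neither was called without that library. Peptide genes of clock neurons and their receptors gave 6 falls (33.3%) and no rise among 18 tested. The falls included the neuropeptide genes AstC (-0.38 log2), Trissin (-0.43 log2) and ITP (-0.29 log2), and Dh44-R1 (-0.34 log2), a diuretic hormone receptor. Without night replicate 1 the falls among these 18 genes numbered 4.

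The 12 largest rises and 12 largest falls were taken from genes called with and without control ZT16 replicate 1, with non-overlapping libraries and at least 5 CPM in the higher group. They ranged between 2 kinds, with genes such as Acp1, Cpr92F, CG7214 and phu, given below, in between. In the first kind the 3 libraries of each time lay close together, as for Achl, Hsp22, CG42367, cry, Clk and CG16798. In the second the night libraries were spread over an order of magnitude or more. Jon99Cii, a midgut serine protease gene, had 233, 4.43 and 0.376 CPM in the night libraries and 1 count over all 3 day libraries. CG18180, LManVI and CG34220 were likewise highest in replicate 1, at 120, 105 and 214 CPM. In replicate 3 they stood at 0.205, 0.547 and 2.70 CPM. Replicate 1 held the most midgut and ovary transcripts, but replicate 2 held some too. Examples in replicate 2 were the midgut gene Jon25Biii at 3.65 CPM and the ovary gene osk at 1.98 CPM, both at 0 by day. Leaving out replicate 1 therefore did not remove all such transcripts.

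Hsp22, which encodes a small heat shock protein of mitochondria, rose from 7.37, 9.37 and 9.74 CPM to 101, 132 and 116 CPM (3.72 ± 0.20 log2, adjusted p = 2.07e-06). CG42367 rose from 1.33, 0.726 and 0.927 CPM to between 9.09 and 10.3 CPM (3.30 ± 0.23 log2, adjusted p = 3.68e-06). Both were tight within each time. srRNA, the small ribosomal RNA of mitochondria (chromosome M, 14131 to 14916), went from at most 3.96 CPM to 20.3, 28.5 and 29.5 CPM (3.50 ± 0.62 log2, adjusted p = 0.0045). These are libraries of a messenger RNA kit, and ribosomal RNA took 2.92% to 5.89% of counts at ZT8 and 6.40% to 8.05% at ZT16. Whether the amount of ribosomal RNA left in had a part in this rise was not tested.

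Cuticle genes made up part of the large rises but varied between night libraries. Acp1, an adult cuticle protein gene, stood at 6.1, 2.6 and 2.08 CPM by day and at 33.7, 153 and 23.5 CPM by night. Cpr92F, a cuticle protein gene, went from 0.451 to 0.650 CPM to 9.26, 5.93 and 2.32 CPM. CG7214, which lies near Acp1 on 2L, gave 37.5, 36.4 and 7.82 CPM by night, and CG8736 gave 1.70, 26.9 and 3.52 CPM. Cpr92F and CG7214 had the same order of night libraries, with replicate 1 highest, whereas replicate 2 was highest for Acp1 and CG8736. Over the 31 tested cuticle genes, 6 rose (19.4%) and 4 fell (12.9%). The rises numbered 2 when day replicate 2 or 3 was left out, 3 without knockdown ZT8 replicate 1 or any 1 knockdown ZT16 library, and 0 with the 6 control libraries only, and the falls numbered 2 without day replicate 2, day replicate 3 or night replicate 3. The fall with the lowest adjusted p was that of Cpr72Ec, from 304, 332 and 325 CPM to 173, 194 and 181 CPM (-0.81 ± 0.06 log2, adjusted p = 3.27e-06).

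**Figure D2:**
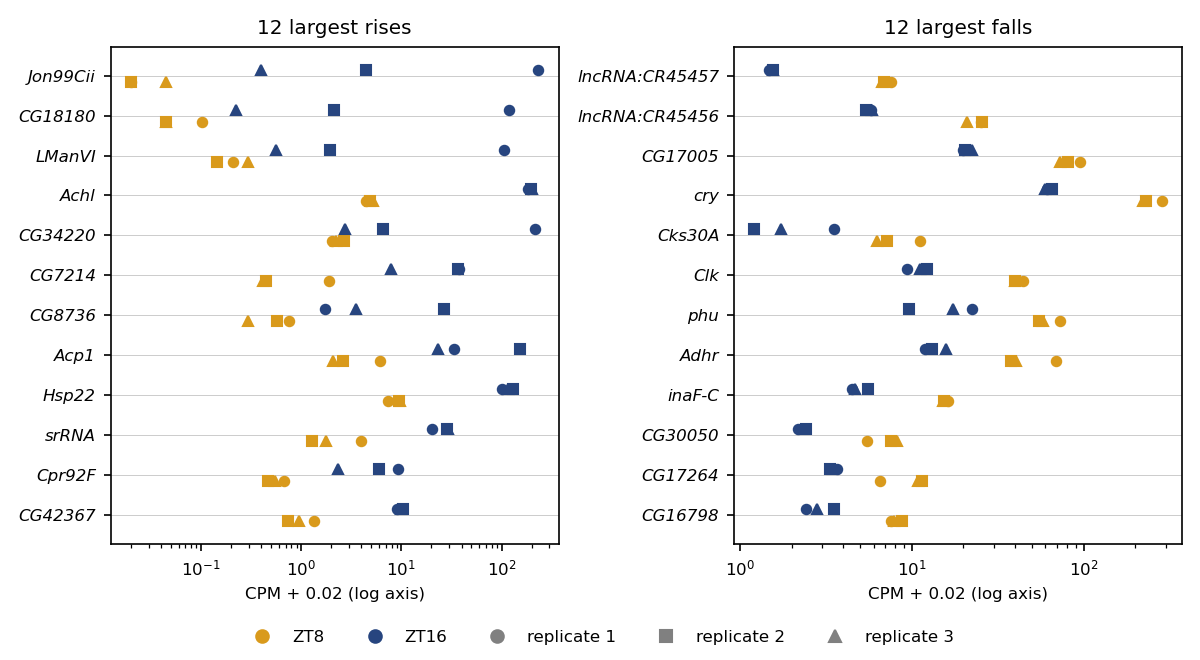
CPM plus 0.02 (horizontal log axes) of the 12 genes with the largest rises and the 12 with the largest falls from ZT8 (gold) to ZT16 (blue) in control heads, 1 point per library, with marker shapes for the replicates. Points of Achl, Hsp22 and CG42367 lie close together within each time, whereas the night points of Jon99Cii, CG18180, LManVI and CG34220 spread widely, with replicate 1 far above the other replicates.

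The largest falls included 4 neighbours on the + strand of chromosome arm 2L, between 9325845 and 9331981. lncRNA:CR45456 fell from 20.9 to 25.5 CPM to 5.38 to 5.88 CPM (-2.07 ± 0.29 log2) and lncRNA:CR45457 from 6.66 to 7.51 CPM to 1.46 to 1.54 CPM (-2.21 ± 0.27 log2). CG17005 fell from 94.7, 81.0 and 72.7 CPM to 19.9, 20.3 and 22.3 CPM (-1.99 ± 0.27 log2, adjusted p = 0.000897). Cks30A, a subunit of cyclin-dependent kinases, fell from 6.26 to 11.1 CPM to 1.19 to 3.49 CPM (-1.94 ± 0.43 log2). Non-overlap between the times was a condition of their choice, and all 4 were called in every fit with a library left out.

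Adhr fell from 69.3, 37.6 and 40.4 CPM to 11.9, 13.2 and 15.9 CPM (-1.85 ± 0.23 log2, adjusted p = 0.000515), and shares its strand and part of its span with Adh, so that counts could be split between them. inaF-C (-1.67 ± 0.16 log2) overlaps inaF-A, inaF-B and inaF-D on its own strand in the same way. phu fell from 72.6, 55.3 and 57.7 CPM to 22.3, 9.64 and 17.4 CPM. CG30050, CG17264 and CG16798 fell by 1.61, 1.47 and 1.47 log2, from means under 10 CPM by day.

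In the eye, several genes of light responses were lower by night, while 5 of 7 rhodopsins did not pass the test. trpl, a light-gated cation channel of photoreceptors, stood at 5000, 4403 and 4098 CPM at ZT8 and at 2344, 2411 and 2578 CPM at ZT16 (-0.88 ± 0.10 log2, adjusted p = 0.000115). laza, a lipid phosphatase, fell by 0.65 log2 and inaC, the eye protein kinase C, by 0.55 log2. ninaA, a cyclophilin that carries rhodopsin through the secretory pathway, rose from 105, 99.3 and 95.7 CPM to 131, 159 and 143 CPM (0.53 ± 0.10 log2, adjusted p = 0.00319). Of 31 phototransduction genes, 7 fell (22.6%) and 4 rose (12.9%). Without night replicate 1, 5 fell (16.1%) and 4 rose. The other rises were trp (0.28 log2), inaF-B (0.36 log2) and ninaG (0.33 log2), named after their values were seen. Of 7 rhodopsins, Rh7 (-0.47 ± 0.07 log2, adjusted p = 0.00084) and Rh6 (-0.36 ± 0.06 log2, adjusted p = 0.00223) fell. Cnx99A, a calnexin needed for rhodopsin folding, rose from 286, 267 and 263 CPM to 552, 588 and 563 CPM (1.06 ± 0.07 log2, adjusted p = 2.96e-06).

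Of 17 eye pigment genes, w fell (5.88%) and se and Pu rose (11.8%). The rises numbered 5 without day replicate 1 and 1 without day replicate 2 or night replicate 2. w, the white transporter of pigment precursors, went from 369, 362 and 346 CPM to 163, 164 and 186 CPM (-1.07 ± 0.10 log2, adjusted p = 4.87e-05). Transgenes of flies often carry a copy of w as a marker, and whether these do is not given in the labels. se, an enzyme of red pigment synthesis, rose from 25.1, 17.7 and 19.0 CPM to 35, 39.2 and 37.3 CPM (0.85 ± 0.12 log2, adjusted p = 0.000649). t, the tan hydrolase that recycles histamine in the eye, rose from 199 to 217 CPM to 287 to 316 CPM (0.55 ± 0.09 log2, adjusted p = 0.00192). Among the 16 monoamine and histamine genes, Tbh (-0.29 log2), Vmat (-0.25 log2) and Ddc (-0.21 log2), which make or package amine transmitters, fell along with ple (-0.48 log2, named after its values were seen). These falls numbered 2 without night replicate 1.

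Neuronal genes were lower at ZT16 in 4 lists. Of 16 genes that neuronal activity is known to induce, 10 fell (62.5%) and 1 rose (6.25%), with a median of -0.32 log2. meng fell from 21.8, 23 and 23.4 CPM to 15.6, 15.3 and 15.7 CPM (-0.55 ± 0.05 log2, adjusted p = 2.84e-05). CG14186 fell by 0.82 log2, CG46385 by 0.61 log2 and CG8910 by 0.52 log2. The immediate early gene Hr38, named after its values were seen, fell from 30.1, 36.2 and 36.3 CPM to 11.1, 17.7 and 13.4 CPM (-1.28 ± 0.17 log2, adjusted p = 0.000649). The rise was that of Arc1, which encodes a capsid-like synaptic protein, from 300, 333 and 330 CPM to 389, 405 and 447 CPM (0.36 ± 0.09 log2, adjusted p = 0.0154), and it too was named after its values were seen. The list held 0 rises, so that Arc1 was not called, without night replicate 3 and also on TPM.

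Of 38 transmitter receptor genes, 22 fell and none rose (57.9% against 11.8% of all genes), with a median of -0.21 log2. The dopamine receptor gene Dop1R1 went from 92.1, 98.7 and 98.6 CPM to 72.7, 73.3 and 70.7 CPM (-0.42 ± 0.06 log2, adjusted p = 0.000694). The acetylcholine receptor subunits nAChRalpha1 and nAChRalpha6 fell by 0.41 and 0.35 log2, and GABA-B-R3, a metabotropic GABA receptor, by 0.41 log2. The day and night libraries did not overlap for these 4, as for 2458 of the 2542 called genes. The fits that left out a library called 14 to 25 of the 38 as lower, 14 without control ZT8 replicate 2 and 16 without control ZT16 replicate 1.

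Of 26 synapse genes, 14 fell (53.8%) and 1 rose (3.85%), with a median of -0.21 log2. para, the voltage-gated sodium channel gene, fell from 487, 526 and 538 CPM to 341, 351 and 341 CPM (-0.59 ± 0.06 log2, adjusted p = 3.91e-05). It is counted in the ion channel list below too, so the lists share members. Rim and brp, which encode active zone scaffolds, fell by 0.40 and 0.33 log2. Synd, a membrane-bending protein gene, rose from 211, 231 and 236 CPM to 295, 318 and 320 CPM (0.46 ± 0.05 log2, adjusted p = 0.00013). The count of falls was 8 without control ZT8 replicate 3 and also 8 without control ZT16 replicate 1. Of 26 ion channel genes 11 fell (42.3%) and 2 rose (7.69%). The rises were the potassium channels Irk1 (0.33 log2) and sand (0.37 log2), named after their values were seen. The falls included Shab, a potassium channel (-0.42 log2), Ca-alpha1T, a calcium channel (-0.43 log2), and stj, a calcium channel subunit (-0.33 log2). Fewer neurons in a sample and less RNA per neuron cannot be told apart in whole heads, here as for every tissue below.

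These neuronal genes are long, and length moved with the time effect in control heads. The median transcript was 1627 bases among genes that rose, 3149 among genes that fell and 1904 over all tested genes. Of 5 equal classes of length, the shortest had 15.7% of genes higher and 6.48% lower by night, and the longest had 6.72% higher and 25.6% lower. Spearman's rho between log2 fold change and length across the 10717 genes was -0.19 in control and 0.017 in knockdown heads. These are descriptions, since genes of a library share its depth and RNA quality. After the median of genes of like length was subtracted, the list medians were -0.17 for transmitter receptors, -0.14 for synapse genes and -0.36 for activity-regulated genes. For ion channels the median was -0.15 before the subtraction and -0.09 after it. The part of length in these results beyond that subtraction was not tested.

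Markers of glia gave 3 rises (16.7%) and no fall among 18 tested genes. Gat, the GABA transporter of glia, rose from 111, 122 and 124 CPM to 178, 200 and 164 CPM (0.60 ± 0.10 log2, adjusted p = 0.00156). Eaat1, the glial glutamate transporter, rose by 0.42 log2 and alrm, an astrocyte marker, by 0.34 log2. The other 15 did not pass, and the list median of 0.06 log2 was near that of all genes and negative on TPM.

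Many genes of mitochondrial translation were higher by night. Of 73 mitochondrial ribosome genes, 42 rose and none fell (57.5% against 12.0% of all genes), with a median of 0.25 log2, or 0.15 after the length subtraction. mRpL24 rose from 24.5, 22.7 and 22.6 CPM to 33.1, 31.7 and 32.6 CPM (0.48 ± 0.05 log2, adjusted p = 0.00013). mRpL39, mRpS7 and mRpL37 rose by 0.47, 0.41 and 0.37 log2. For each of the 4 the night libraries lay above all day libraries. Such non-overlap, in either direction, was shared by 2458 of the 2542 called genes. Between 34 and 43 of the 73 were called as higher in the fits that left out a library, and 35 without control ZT16 replicate 1. On TPM 22 rose and 1 fell.

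The respiratory chain moved less. Of 70 oxidative phosphorylation genes 16 rose (22.9%) and 1 fell (1.43%). The fall was that of ND-SGDH (-0.16 log2, named after its values were seen). The list median was 0.14 log2, and 0.04 after the length subtraction. Cyt-c-p, the somatic cytochrome c, rose from 235, 195 and 204 CPM to 359, 382 and 376 CPM (0.82 ± 0.08 log2, adjusted p = 3.16e-05). ATPsynbeta, a catalytic subunit of ATP synthase, rose by 0.42 log2, ox, a subunit of complex III, by 0.52 log2 and ND-MNLL, of complex I, by 0.38 log2. The count of rises depended on the day libraries, at 36 without control ZT8 replicate 1 and at 6 and 7 without replicates 2 and 3. Among 20 genes of the TCA cycle and the pyruvate dehydrogenase complex 4 rose (20%) and 1 fell (5%). The rises were those of muc, Pdha, ScsbetaA and Idh3b, by 0.33 to 0.37 log2. The fall was that of kdn, the citrate synthase (-0.33 log2, named after its values were seen). There the rises numbered 11 without day replicate 1, 2 without day replicate 2 and 8 without knockdown ZT8 replicate 3.

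Among 19 genes of glycolysis and fermentation the median was -0.10 log2. Ldh, lactate dehydrogenase, rose from 10.9, 9.04 and 8.72 CPM to 30.8, 36.6 and 28.9 CPM (1.75 ± 0.11 log2, adjusted p = 1.62e-06) and was the only one to rise. Tpi, Pfk and Pgi, enzymes of the upper pathway, fell by 0.38, 0.29 and 0.40 log2. Of these 3 the calls of Pfk and Pgi were kept in 8 and 9 of the 12 fits. With day replicate 1 left out, 5 genes rose and the median turned to 0.04 log2, and 1 gene fell with any 1 of the night controls left out.

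Protein synthesis and breakdown gave small rises. Of 43 translation factors 13 rose (30.2%) and none fell. eIF1A rose from 271, 256 and 266 CPM to 330, 331 and 335 CPM (0.33 ± 0.04 log2, adjusted p = 0.000225). eIF3c, eIF4H1 and eEF5 rose by 0.29, 0.30 and 0.40 log2. The rises numbered 6 without control ZT8 replicate 2 or control ZT16 replicate 1. On TPM 3 rose and 3 fell with a negative median, so the direction of this list depends on the scaling. Of 32 proteasome genes 9 rose (28.1%) and none fell. Among the rises were Rpn8 (0.34 log2) and Rpn9 (0.32 log2) of the lid and Rpt5 (0.33 log2) and Rpt1 (0.29 log2) of the base. The count of rises was 17 without control ZT8 replicate 1 and 4 without replicate 2. On TPM 2 proteasome genes rose and none fell, with a median of 0.02 log2 where the median gene stood at -0.11. In knockdown heads 1 rose and 6 fell. Of 86 cytoplasmic ribosomal protein genes 13 rose and 9 fell, with a median of 0.01 log2. These shares of 15.1% and 10.5% lie near the 12.0% and 11.8% of all genes. Leaving out 1 library gave 4 to 13 rises, the fewest without night replicate 1, and 6 to 10 falls. RpL36A rose by 0.30 log2, and RpS16, RpL22 and RpS21 fell by 0.35, 0.35 and 0.33 log2. Without control ZT16 replicate 1 the counts were 4 up and 7 down.

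Lipid genes rose in 9 (25%) and fell in 4 (11.1%) of 36 cases. whd, the mitochondrial carnitine palmitoyltransferase, rose from 211, 210 and 202 CPM to 239, 248 and 275 CPM (0.29 ± 0.05 log2, adjusted p = 0.00223), and Fatp1, a fatty acid transporter, by 0.26 log2. bgm, an acyl-CoA synthetase of very long chain fatty acids, fell from 166, 139 and 132 CPM to 74.2, 65.8 and 56.7 CPM (-1.15 ± 0.13 log2, adjusted p = 0.000217). FarO fell from 11.5, 8.92 and 8.29 CPM to 4.54, 3.03 and 2.80 CPM (-1.47 ± 0.19 log2, adjusted p = 0.000258). Lip3 and SCAP, named after their values were seen, fell by 1.80 and 0.17 log2. Rises numbered 3 without control ZT8 replicate 2 or 3, and on TPM 2 of the 36 rose and 9 fell. In the fat body list Hnf4, a nuclear receptor of lipid use, rose by 0.46 log2 and Lsd-2, a lipid droplet protein gene, by 0.25 log2, while 25 of 27 did not pass. The rises in that list numbered 9 with day replicate 1 left out, where the median was 0.32 in place of 0.19 log2, and 4 without knockdown ZT8 replicate 1, knockdown ZT8 replicate 3 or night replicate 2, and 1 without day replicate 2 or 3.

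In detoxification families genes went both ways. Of 32 glutathione transferases 9 fell (28.1%) and 5 rose (15.6%). GstZ2 fell from 47.7, 36.0 and 38.9 CPM to 18.1, 19.2 and 20.8 CPM (-1.08 ± 0.12 log2, adjusted p = 9.98e-05). GstE1 and GstE2 gave -0.68 and -0.67 log2. The rises were se, given above, and GstE13, GstE14, GstT1 and GstT3 at 0.38 to 0.68 log2, named after their values were seen. Rises of this family numbered 8 without day replicate 1, 2 without day replicate 2 or 3, and 3 without night replicate 1 or 3 or knockdown ZT16 replicate 2. Of 22 UDP-glycosyltransferases 6 fell (27.3%) and 2 rose (9.09%). Among the falls were Ugt49C1 (-0.66 log2) and Ugt302C1 (-0.44 log2). Ugt36D1 rose from 19.9 to 21.6 CPM to 34.5 to 35.3 CPM (0.74 ± 0.07 log2, adjusted p = 2.69e-05). Of 78 cytochrome P450 genes 11 rose and 9 fell, 14.1% and 11.5%, shares close to the 12.0% and 11.8% of all genes. The rises numbered 22 without day replicate 1 and 7 without day replicate 2, and the falls 6 without night replicate 2. Cyp18a1, which inactivates ecdysteroids, rose from a mean of 20.9 to one of 39.6 CPM, with no overlap of libraries (0.92 ± 0.10 log2, adjusted p = 7.37e-05). Cyp6d5 rose by 0.65 log2, Cyp4d21 by 1.27 log2, and Cyp4p1 and Cyp4aa1 fell by 0.45 and 0.67 log2. Gclc, which starts glutathione synthesis, rose from 101, 108 and 107 CPM to 152, 159 and 162 CPM (0.58 ± 0.04 log2, adjusted p = 4.68e-06), and MtnA, a metallothionein, fell by 0.60 log2.

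Of 29 heat shock genes 5 rose and 4 fell, 17.2% and 13.8%, near the shares of all genes. Leaving out 1 library gave 3 to 6 rises, the fewest without day replicate 1, and 4 to 6 falls. Hsp83, the cytosolic Hsp90, fell from 1156, 1012 and 1007 CPM to 807, 666 and 653 CPM (-0.58 ± 0.08 log2, adjusted p = 0.000538). l(2)efl, a small heat shock protein gene, fell by 0.74 log2 and DnaJ-1 by 0.22 log2, whereas Hsp22 rose as given above. Of the 5 rises, that of Hsp27 (1.98 log2, adjusted p = 0.0466) was highest in control ZT16 replicate 1, at 19.9 CPM against 4.19 and 2.73 CPM in the other night libraries, and 2 of the 12 fits kept it. It was named after its values were seen, as were the further rises Hsc70-1 (0.90 log2), Hsc70-2 (0.98 log2) and Hsc70-5 (0.29 log2).

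Hormone genes fell in 8 (23.5%) and rose in 2 (5.88%) of 34 cases. The rises were Ilp6 (0.39 log2), an insulin-like peptide gene, and ftz-f1 (0.21 log2), a nuclear receptor gene, both named after their values were seen. Jhe, the esterase that breaks down juvenile hormone, fell from 6.10, 3.78 and 4.26 CPM to 0.271, 0.204 and 0.307 CPM (-4.15 ± 0.27 log2, adjusted p = 1.91e-06), which was a larger fall than any of the 12 above but below their CPM minimum. The transcription factor genes br and Hr3 of the ecdysone response fell by 0.35 and 0.51 log2, and Pdk1, a kinase of insulin signalling, by 0.39 log2. All 4 were called in every fit with a library left out.

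**Figure D3:**
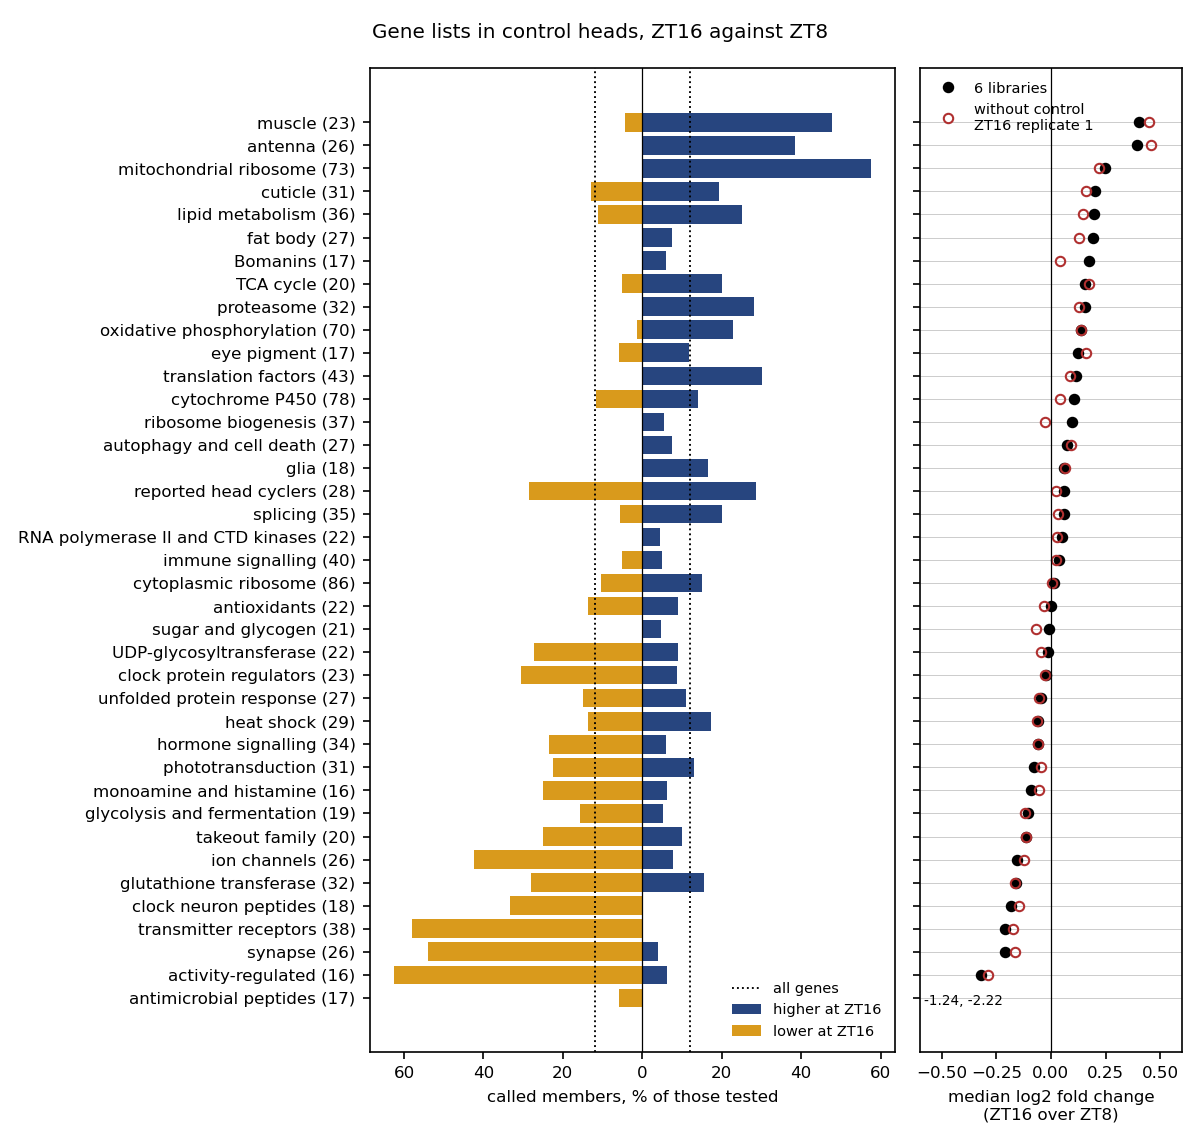
Gene lists with at least 16 tested members, ordered by median, in control heads. Bars give the percent of tested members (number in brackets) called as higher (blue, to the right) or lower (gold, to the left) at ZT16, dotted lines give the 12.0% and 11.8% of all genes, and points give the median log2 fold change over 6 libraries (filled) and without control ZT16 replicate 1 (open). Mitochondrial ribosome genes lie far to the right of the dotted line, and activity-regulated, transmitter receptor and synapse genes far to the left. The medians of antimicrobial peptides lie outside the axis and are printed in their row.

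Genes of tissues that a head sample can hold in varying amount also differed. Of 23 muscle genes 11 rose (47.8%) and 1 fell (4.35%), the latter being Act57B (-0.33 log2, named after its values were seen). Mlc2, a myosin light chain, rose from 445, 402 and 422 CPM to 705, 695 and 611 CPM (0.67 ± 0.11 log2, adjusted p = 0.00209). The rises of up, which encodes troponin T, and Mlc1, another light chain, were 0.61 and 0.68 log2, and that of wupA, which encodes troponin I, was 0.49 log2. The summed level of 25 muscle genes was 6877 to 7731 CPM by day and 8041 to 9076 CPM by night. The count of rises was 5 without control ZT8 replicate 2 or 3.

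Some antennal genes split the libraries in another way. The list holds mostly odorant-binding protein genes, along with Orco, the odorant co-receptor gene, and a few others. Of 26 tested, 10 rose (38.5%), none fell and 16 did not pass. Obp99a stood at 6.45, 6.04 and 5.81 CPM by day and 45.7, 27.9 and 51.3 CPM by night (2.77 ± 0.42 log2, adjusted p = 0.00208). Os-C had 4 counts in all over the 3 day libraries, and 0.0678, 3.95 and 4.00 CPM by night. Obp83b had 0.276 to 0.379 CPM by day and 0.644, 4.06 and 5.30 CPM by night. Control ZT16 replicate 1 thus resembled the day libraries for Os-C and Obp83b, and the other night libraries resembled the knockdown libraries, whose Os-C levels were 0.72 to 5.56 CPM at both times. The count of 10 fell to 1 without control ZT8 replicate 2 or 3, to 4 and 2 without control ZT16 replicates 2 and 3, and to 6 without knockdown ZT16 replicate 2 or 3. Orco did not split the libraries, at 3.96, 6.71 and 5.18 CPM by day and 4.10, 4.33 and 4.95 CPM by night. Snmp1 did not either, at 12.4 to 14.1 CPM by day and 13.7 to 14.4 CPM by night. Whether the antennae of each sample were complete was not tested.

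**Figure D4:**
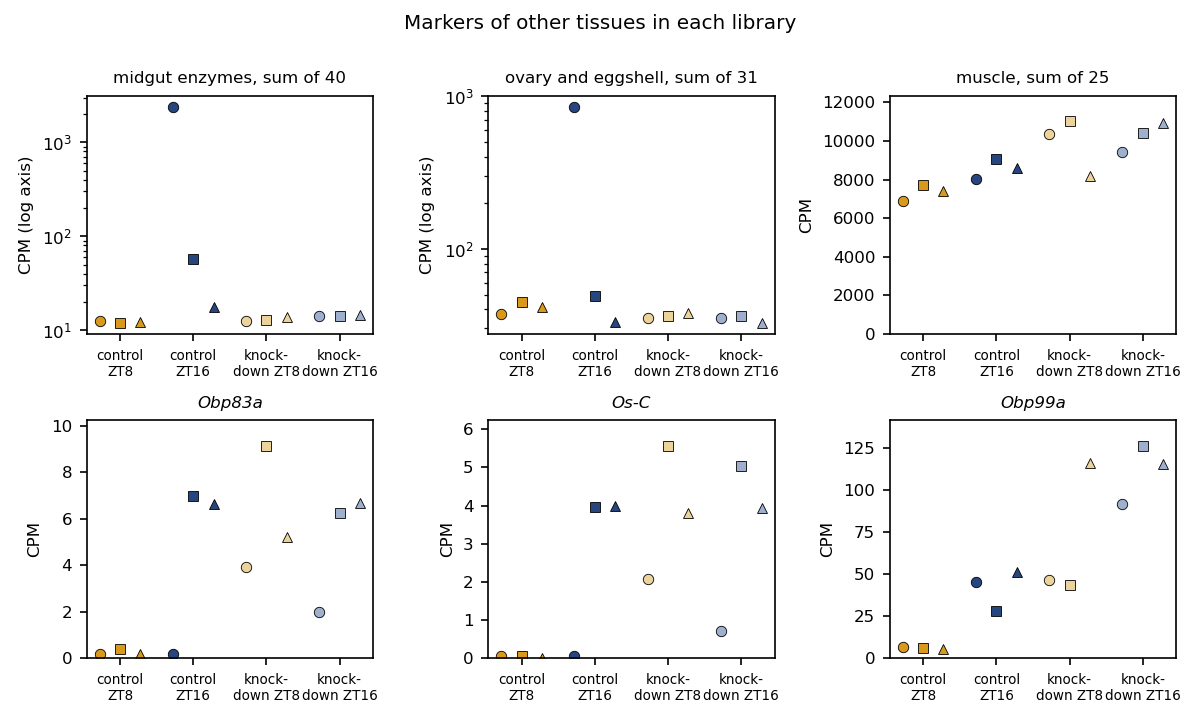
Summed CPM of midgut enzyme and of ovary and eggshell genes (log axes), of muscle genes (axis from 0), and CPM of 3 antennal genes (axes from 0) in each of the 12 libraries, coloured by group with marker shapes for the replicates. Control ZT16 replicate 1 stands at 2394 and 856 CPM for midgut and ovary genes, and lies with the day libraries for Obp83a and Os-C.

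The same comparison in knockdown heads shares no library with the control one, though 1 fit gave both. There 2488 genes were called (23.2%), 1268 up (11.8%) and 1220 down (11.4%), against 1572 without knockdown ZT16 replicate 1. A total of 1103 genes were called in both genotypes in the same direction, 583 up and 520 down, which is 43.4% of the control calls and 44.3% of the knockdown calls, and 51 genes were called in opposite directions. Of the 1320 control calls that all 12 fits kept, 761 (57.7%) were shared. All 6 called clock genes moved the same way in knockdown heads, with log2 fold changes of 0.95 for per, 1.28 for tim, 0.35 for vri, 0.79 for Pdp1, -2.13 for Clk and -1.95 for cry, and the difference between genotypes did not pass for any of them (lowest adjusted p 0.1, for vri).

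The difference between the 2 time effects was called for 448 genes (4.18%), 162 with the higher effect in control and 286 with the lower. This count moved widely when a library was left out. It was 1107, 22 and 27 without control ZT8 replicates 1, 2 and 3, 269 and 24 without control ZT16 replicates 2 and 3, 116 and 257 without knockdown ZT8 replicates 1 and 2, and 19, 292 and 73 without knockdown ZT16 replicates 1, 2 and 3. A total of 18 genes were called in every such fit. Hsp22 and Ldh were among them. Hsp22 stood at 8.33 to 15.1 CPM at ZT8 and 4.90 to 5.35 CPM at ZT16 in knockdown heads, and Ldh at 14.7 to 18 CPM at ZT8 and at most 15.6 CPM at ZT16. The night level of each in knockdown heads lay below all 3 control night libraries. Arc1, named after its values were seen, rose in control heads and fell in knockdown heads (-1.06 log2), a difference of 1.42 log2 with an adjusted p of 0.000871.

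Neuronal lists differed between genotypes in the full fit. Of 38 transmitter receptors 22 fell in control, whereas 10 rose and 1 fell in knockdown heads, and for 14 the difference was called, each with the lower effect in control. Of 26 synapse genes 12 differed in that way. Neither count held: leaving out knockdown ZT16 replicate 1 brought both to 0, as did leaving out replicate 2 or 3 of the control day group, and without replicate 1 of that group they were 21 and 18. With the replicate number as a block they were 2 and 2. By contrast, the activity-regulated list fell in both genotypes, with 10 falls of 16 in control and 13 in knockdown heads, and mitochondrial ribosome genes rose in both, 42 and 27 of 73. Cytoplasmic ribosomal proteins, 13 up and 9 down in control, were 40 down and none up of 86 in knockdown heads, and the difference was called for 4 of them.

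**Figure D5:**
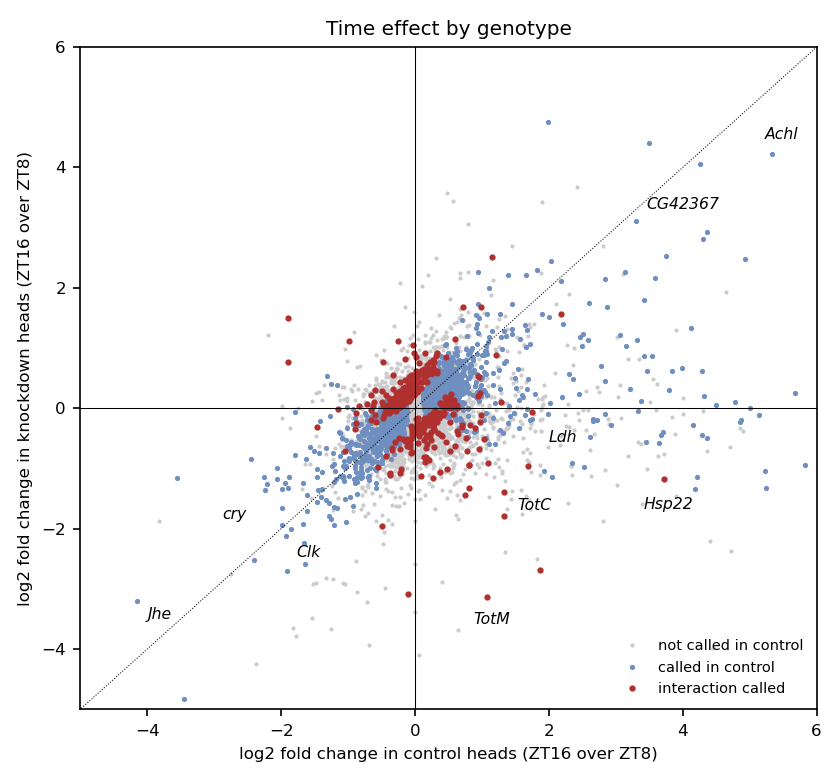
The log2 fold change from ZT8 to ZT16 of each tested gene in control heads (horizontal) and in knockdown heads (vertical), with genes called in control in blue, genes with a called difference between genotypes in red and the others in grey; 21 genes lie outside the axes and the dotted line marks equal effects. cry and Clk lie near the dotted line, while Hsp22, Ldh and TotM lie far below it.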

How the data were processed

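Libraries were made from head RNA (QIAzol, TruSeq Stranded mRNA, per the labels' protocols). STAR 2.6.0c, RSEM 1.3.1 and the dm6 genome are named in the submitters' processing notes. The authors deposited 1 table of 35536 transcripts with expected counts as whole numbers, FPKM and TPM per library. FPKM values, deposited by the authors, were not used. Column names of the control ZT16 libraries lack a digit of their library names and were matched by time and number. The strand setting is not given in the sources used here.

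Expected counts were summed by gene symbol (17816 genes), filtered (minimum count 10), scaled by TMM and fitted with edgeR 4.0.16 in R 4.3.3, as 4 group means over 12 libraries, with the robust quasi-likelihood test (8 residual degrees of freedom) and Benjamini-Hochberg adjustment, called under 0.05. Both times of each genotype enter 1 fit, so that the spread is shared. Standard errors are the log2 fold change over the root of F. CPM values use TMM sizes, except summed marker levels, which use raw totals. Deposited TPM values were summed by gene and tested with limma 3.58.1 on log2(TPM + 0.1) as an alternative, beside DESeq2 1.42.0, limma-voom, other scalings and filters, 6 libraries only, a replicate block and leaving out each library. Coordinates are dm6, and 35128 of 35167 transcripts matched by identifier had the same start and end in Ensembl's annotation, which gave strands and overlaps.

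Members and the 47 gene lists were chosen with earlier results of these data known. Named genes are 8 core clock genes, the 12 largest rises and falls as defined in the text, up to 4 called members per list by adjusted p, and the 4 largest differences between genotypes each way with at least 5 CPM. The model was tested on simulated data. Lists are described by counts and medians, with no set test, and no sequence is shown.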

Additional observations from a re-analysis of the deposited data

Results flagged for a closer look

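For 22 of the named genes the effect of time differed between control and knockdown heads by the interaction test (edgeR, adjusted p under 0.05). Values are the control effect minus the knockdown effect on the log2 scale, and none of the differences is weighed here. For Hsp22, the mitochondrial small heat shock protein gene, the difference was 4.89 (adjusted p = 9.08e-05), and for Ldh, lactate dehydrogenase, it was 1.81 (adjusted p = 0.000419). Both were called in all 12 fits that left out a library.

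The stress genes TotM and TotC differed by 4.21 and 2.71 log2, and CG7910 by 3.11 log2. In knockdown heads TotM stood at 145, 150 and 33.0 CPM at ZT8 and at 9.45 to 16 CPM at ZT16, with day replicate 3 apart from the other day libraries. Of the 12 fits 2 kept the call of TotM, 1 that of TotC and 5 that of CG7910.

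In the other direction, the control effect was lower for CG17264 (-1.16), CG13026 (-1.36), bgm (-1.14), CG40298 (-1.08), Pu (-0.58) and Gat (-0.55). bgm fell by 1.15 log2 in control heads and gave -0.02 log2 in knockdown heads, and 9 of the 12 fits kept the difference. CG13026 rose in both, by 1.15 and 2.51 log2, and 7 fits kept its difference. Of the others, 3 fits kept that of CG40298, 3 that of Gat, 2 that of Pu and 1 that of CG17264.

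Among neuronal genes the difference was -0.36 for para, -0.37 for brp and -0.36 for nAChRalpha1, and it was -0.34 for br, a transcription factor gene of the ecdysone response. At most 5 of the 12 fits kept these calls.

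The remaining flags were small and positive. They were 0.34 for mRpS7 and 0.28 for mRpL37 of the mitochondrial ribosome, 0.31 for RpS16 and 0.35 for RpL22 of the cytoplasmic ribosome, and 0.46 for SmE of the spliceosome. PEK, the kinase that senses unfolded proteins, gave 0.37 and Ugt302C1 gave 0.36. Except for Ugt302C1, kept in 9 fits, at most 5 of the 12 fits kept them.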

How the results depend on the processing

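The count of night and day calls in control heads was 2542, and was 1532 and 1689 without control ZT8 replicates 2 and 3. The range over the fits that left out a library was 1532 to 2810. In knockdown heads 2488 calls became 1572 without knockdown ZT16 replicate 1 (range 1572 to 2871). The 448 differences between genotypes ranged from 19 to 1107 over those fits, and were 240 with no filter, 918 with DESeq2 and 73 on TPM, with the cause not tested. Lists with more rises than falls numbered 25, against 9 on TPM and 13 and 16 without control ZT8 replicates 2 and 3 (range 13 to 25). With the replicate number as a block, 2338 control calls and 137 differences between genotypes remained by count. Control libraries with the same title number did not deviate together (correlations of -0.009, 0.081 and -0.050). Those of the knockdown correlated at 0.106, 0.109 and 0.127, just over the 0.1 taken to mark pairs. The 2488 calls there became 2280 under the block. Library names at ZT8 differ in part from the title numbers, so the block and these correlations may join unrelated libraries. They therefore cannot decide whether libraries were paired. Control calls numbered 1785 with 6 libraries only.

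Among single genes that did not pass, cwo turned to -0.072 on TPM. cyc turned to -0.0048 with 6 libraries only, to -0.12 on TPM, to -0.012 and -0.0078 without control ZT8 replicates 2 and 3, to -0.0066 without knockdown ZT8 or ZT16 replicate 2, and to -0.017 without control ZT16 replicate 3. CG40298 turned to 0.081 and 0.084 without control ZT8 replicate 3 and control ZT16 replicate 1 (range -0.165 to 0.084). Of the other values of single genes, 3240 kept direction and side of the threshold, 241 lost it and 4 gained it. List medians moved by more than the spread between replicates in 47 of 414 cases.

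Night libraries were shallower than day libraries in both genotypes, so depth and time of day cannot be told apart.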

Other observations

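Calls of immune genes depended on single libraries. Of 17 antimicrobial peptide genes 1 was called, CecB, which went from 5.28, 2.78 and 2.86 CPM to 0.576, 0.307 and 0.102 CPM (adjusted p = 0.0393), and the list median was -1.24 log2. That median was -2.22, -0.93 and -0.88 log2 without night replicates 1, 2 and 3, and 4 fell without knockdown ZT8 replicate 3, while CecB was kept in 4 of the 12 fits. Of 40 genes of immune signalling 2 rose, cact (0.15 log2) and tub (0.16 log2) of the Toll pathway, and 2 fell, the falls being the peptidoglycan recognition genes PGRP-SB1, from 127, 129 and 126 CPM to 66.9, 51.4 and 56.8 CPM (-1.13 ± 0.19 log2, adjusted p = 0.00278), and PGRP-LB (-0.86 log2). BomT3, a Toll-dependent peptide gene, rose from 82.6, 63.2 and 62.3 CPM to 149, 144 and 131 CPM (1.03 ± 0.12 log2, adjusted p = 0.000175), and the other 16 Bomanin genes did not pass. Without day replicate 1 there were 9 rises among the 17 (median 0.34 against 0.17 log2), and 5 with a replicate block. Immune signalling had 8 rises and 3 falls without day replicate 1, 5 and 4 without knockdown ZT8 replicate 3, and no rise without day replicate 3, night replicate 2 or 3, or knockdown ZT16 replicate 2.

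Of 10168 messenger RNA genes 24.3% were called, and of 482 noncoding RNA genes 14.3%, a difference that was not tested. Of the noncoding RNAs 20 rose and 49 fell. RNA-processing genes gave 7 rises (20%) and 2 falls (5.71%) among 35 splicing genes. The spliceosome core genes SmD3, SmD2 and SmE rose by 0.50, 0.30 and 0.32 log2. B52, a splicing factor gene, fell by 0.17 log2. The list had 4 rises without day replicate 2, night replicate 1 or 3, or knockdown ZT16 replicate 2, and on TPM it gave 3 rises and 3 falls.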
